A study of Mus musculus with 8 samples.

Results

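The genes described here are those of cholesterol synthesis, uptake, efflux and their regulators, taken as a fixed list of 31 symbols: 18 genes of synthesis, 3 of uptake and intracellular transport, 2 of efflux and 8 regulators. A probe set annotated with a single symbol measured 28 of the 31, among 12393 genes so measured on the array. They comprised 17 of the 18 synthesis genes, all 3 uptake and transport genes, both efflux genes and 6 of the 8 regulators. Acat2, Insig1 and Nr1h2 were not analysed here. Each of the 28 reached the signal floor of 122 on 1 or more arrays, so none was lost to the filter that left 9626 genes for testing.

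The cells were cultured mouse embryonic fibroblasts of a mixed C57BL/6 x 129Ola background, in 4 genotypes: Tbk1-/- (Ikbke intact), Tbk1-/- Ikbke-/- (both lost), Ikbke-/- (Tbk1 intact) and wild type (WT, both intact). Tbk1 and Ikbke encode related protein kinases that activate interferon regulatory factors after nucleic acid is sensed in the cytosol. Cells of each genotype were collected 4 h after transfection with B-DNA, the synthetic double-stranded DNA poly(dA-dT)-poly(dT-dA), or after mock transfection. Total RNA of each of the 8 combinations was read on 1 Affymetrix array, so no value below has a replicate, and the labels do not say how many embryos each culture came from.

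Cholesterol is built from acetyl-CoA through mevalonate, the isoprenoid farnesyl diphosphate, squalene and lanosterol. When membrane sterol is low, the escort protein Scap carries the membrane-bound transcription factors encoded by Srebf1 and Srebf2 to the Golgi, where they are cut and released to switch on the synthesis genes, and Insig proteins hold the complex back when sterol is plentiful. Oxysterols such as 25-hydroxycholesterol, the product of the interferon-inducible enzyme Ch25h, both bind Insig and activate liver X receptors, which drive the efflux transporters Abca1 and Abcg1.

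Before the cholesterol genes are described, 3 features of the arrays bear on them. The Tbk1 signal was 305 after B-DNA and 226 after mock in Tbk1-/- cells, 389.6 and 290.01 in Tbk1-/- Ikbke-/- cells, 910.02 and 472 in Ikbke-/- cells, and 989 and 501 in WT cells, so both B-DNA and mock signals were lower in cells labelled Tbk1-/- than in cells labelled with Tbk1 intact. Whether this probe set lies in the deleted part is not given in the sources used here. Xist was at 2950.1 or above on the Tbk1-/- and WT arrays and at 209 or below on the Tbk1-/- Ikbke-/- and Ikbke-/- arrays, so loss of Ikbke cannot be told apart from embryo sex. Of 12 fibroblast markers, 11 or 12 reached a signal of 244 on every array. Of 18 macrophage markers, 11 reached it after B-DNA and 15 after mock in WT cells, with summed signals of 5768 and 16511, against 1 or 2 markers and sums of 1431 to 1926 on the other 6 arrays. The macrophage genes Lyz2 and C1qa had signals of 1205 and 303 after B-DNA and 4991 and 1191 after mock in WT cells, while C1qa stayed at 9.02 to 13.6 on the other 6 arrays. The part of these cells in the WT values below was not tested, and in such bulk RNA fewer cells of a type and less RNA per cell cannot be told apart.

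Promoters of the 3 synthesis genes whose probe set used differed 2-fold or more after B-DNA in any genotype are shown first. Their letters can be set beside the values that follow. Each is the 250 bases upstream of the RefSeq gene start (build GRCm38.p6), written 5′ to 3′ on the strand of the gene. Capitals mark CCAAT boxes, which bind the factor NF-Y, read on either strand (CCAAT or ATTGG), and in Hmgcs1 also the sterol regulatory element TCACNCCAC. Msmo1 lies at chr8:64733579-64733828 on the minus strand, Lss at chr10:76531355-76531604 on the plus strand and Hmgcs1 at chr13:119690101-119690350 on the plus strand.
Msmo1: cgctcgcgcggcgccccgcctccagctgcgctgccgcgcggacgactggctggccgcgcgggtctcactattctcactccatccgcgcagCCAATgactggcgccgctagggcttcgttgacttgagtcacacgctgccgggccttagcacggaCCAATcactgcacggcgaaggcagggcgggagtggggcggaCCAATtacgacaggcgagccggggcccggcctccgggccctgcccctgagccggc
Lss: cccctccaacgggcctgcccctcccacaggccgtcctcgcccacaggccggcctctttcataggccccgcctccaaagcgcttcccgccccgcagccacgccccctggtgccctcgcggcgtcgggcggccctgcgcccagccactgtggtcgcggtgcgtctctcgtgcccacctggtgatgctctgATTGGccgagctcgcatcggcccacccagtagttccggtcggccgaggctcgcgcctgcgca
Hmgcs1: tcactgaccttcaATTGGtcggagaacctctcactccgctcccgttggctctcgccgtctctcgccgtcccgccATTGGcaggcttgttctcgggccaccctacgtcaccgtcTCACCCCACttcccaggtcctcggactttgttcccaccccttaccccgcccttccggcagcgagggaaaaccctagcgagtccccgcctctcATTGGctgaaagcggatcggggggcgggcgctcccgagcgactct
Of the 31 genes, 25 had a window of 250 bases before to 50 after the start in the RefSeq table, the others being Fdps, Fdft1, Sqle, Stard4, Npc1 and Abcg1. A CCAAT box lay in 14 of the 15 synthesis genes with a window, or 93.3%, against 41.1% of 27025 genes. The sterol regulatory element, searched as TCACNCCAC on both strands, lay in 1 of those 15 genes, Hmgcs1, against 1.44% of all genes. The core of the interferon-stimulated response element, searched as GAAANNGAA on both strands, lay in 1 of the 25 genes, Ebp, against 9.76% of all genes, and the Ch25h window held none of these motifs. These matches describe letters in a short window and say nothing of binding.

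Most synthesis genes had lower signals after B-DNA than after mock in Tbk1-/-, Ikbke-/- and WT cells, and lay on both sides of 0 in Tbk1-/- Ikbke-/- cells. The log2 ratio of B-DNA over mock was below 0 for 15 of the 17 synthesis genes in Tbk1-/- cells, 9 in Tbk1-/- Ikbke-/- cells, 16 in Ikbke-/- cells and 16 in WT cells. Over all genes tested the shares below 0 were 38.7%, 46.1%, 49.8% and 49.6% in the same order of genotypes. The median ratio of the 17 genes was -0.78 in Tbk1-/- cells, -0.06 in Tbk1-/- Ikbke-/- cells, -0.71 in Ikbke-/- cells and -0.34 in WT cells, where the median of all genes was 0 in each. The order of these medians describes 1 pair of arrays per genotype.

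On the probe set used, few of these differences were large. A 2-fold rule, with the higher signal at 244 or above, found 2 of the 17 synthesis genes lower in Tbk1-/- cells (Hmgcs1 and Msmo1), 0 in Tbk1-/- Ikbke-/- cells, 2 in Ikbke-/- cells (Lss and Msmo1) and 2 in WT cells (Hmgcs1 and Msmo1). Of all genes tested, 0.405% were lower by this rule in Tbk1-/- cells, 0.748% in Tbk1-/- Ikbke-/- cells, 1.64% in Ikbke-/- cells and 1.89% in WT cells. On the probe set used, no synthesis gene was 2-fold higher in any genotype. At 1.5-fold the rule found 11 lower synthesis genes in Tbk1-/- cells, 1 in Tbk1-/- Ikbke-/- cells (Sc5d), 10 in Ikbke-/- cells and 5 in WT cells. The share of all genes was 2.08%, 4.2%, 7.84% and 7.22% in that order. The 5 genes of WT cells, Hmgcs1, Sqle, Lss, Cyp51 and Msmo1, were also 1.5-fold lower in Tbk1-/- and in Ikbke-/- cells, 3 pairs that share no array, as were 24 of all genes tested (0.249%). Another 3, Mvk, Idi1 and Sc5d, were lower in both Tbk1-/- and Ikbke-/- cells but not in WT cells by this rule. With WT cells left aside, 8 of the 17 synthesis genes were lower in both, as were 46 of all genes tested (0.478%). The counts by both rules depend on the probe set used. In Tbk1-/- cells other probe sets of Fdft1 and Sc5d were 2-fold lower, at -1.22 and -1.09. In Ikbke-/- cells those of Mvd and Hsd17b7 were, at -1.16 and -1.12, while the brightest other Lss probe set stayed short of it at -0.98. In WT cells those of Mvd and Idi1 passed 2-fold. In WT cells 1 other probe set each of Mvd, Idi1, Fdft1 and Hsd17b7 passed 1.5-fold, at -1.88, -1.03, -0.62 and -0.61. The brightest other probe sets of Cyp51 and Lss did not, at -0.44 and -0.32.

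**Figure D1:**
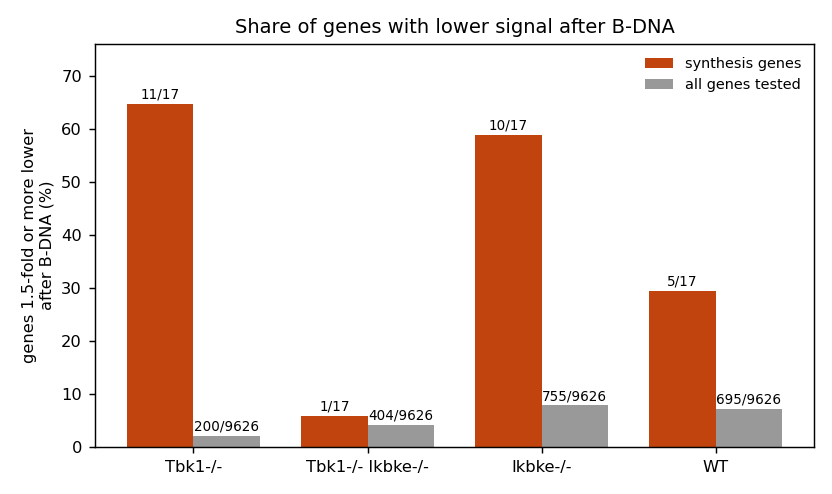
Share (%) of the 17 synthesis genes and of all 9626 genes tested that were 1.5-fold or more lower after B-DNA (y axis), by genotype (x axis), with 1 pair of arrays each and the counts above the bars. The synthesis bars hold 11 of 17 genes in Tbk1-/-, 1 in Tbk1-/- Ikbke-/-, 10 in Ikbke-/- and 5 in WT cells.

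The early steps make and use mevalonate. Hmgcs1, the cytosolic synthase that makes HMG-CoA, had signals of 4093 after B-DNA and 9264 after mock in Tbk1-/- cells. The Tbk1-/- Ikbke-/- pair had 3012 and 3253. In Ikbke-/- cells its signal was 6969 after B-DNA and 12083 after mock, and in WT cells 1835 and 4422. On this probe set the B-DNA array was the lower of the pair in every genotype, with log2 ratios of -1.18 in Tbk1-/-, -0.11 in Tbk1-/- Ikbke-/-, -0.79 in Ikbke-/- and -1.27 in WT cells. Its 3 other probe sets gave -1.27 to -1.35 in Tbk1-/- cells, -0.39 to -0.80 in Ikbke-/- cells and -1.20 to -1.82 in WT cells. In Tbk1-/- Ikbke-/- cells they gave 0.41, -0.47 and 0.19, so the 4 probe sets did not share a direction there.

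Mevalonate kinase (Mvk) had ratios of -0.86 in Tbk1-/-, -0.06 in Tbk1-/- Ikbke-/-, -0.89 in Ikbke-/- and -0.26 in WT cells. Its other, dimmer probe set gave -0.35, 1.11, -0.73 and 0.10 in the same genotypes. In Tbk1-/- Ikbke-/- cells that probe set read 263 after B-DNA and 109 after mock, past the 2-fold rule but with the mock signal under the floor. Phosphomevalonate kinase (Pmvk) stayed within -0.37 to 0.13. Mevalonate diphosphate decarboxylase (Mvd) ranged from -0.81 in Ikbke-/- cells to 0.15 in Tbk1-/- Ikbke-/- cells, and its WT ratio was -0.19. Its other probe set gave -0.51 in Tbk1-/-, -0.09 in Tbk1-/- Ikbke-/-, -1.16 in Ikbke-/- and -1.88 in WT cells, so the probe sets differed in size, and in sign in the double mutant. Idi1, which isomerises isopentenyl diphosphate, had ratios of -0.90, -0.08, -0.76 and -0.57 in Tbk1-/-, Tbk1-/- Ikbke-/-, Ikbke-/- and WT cells. Farnesyl diphosphate synthase (Fdps) had ratios of -0.36, 0.29, -0.41 and -0.40 in the same genotypes. For 5 of these 6 genes, all but Pmvk, the highest ratio was that of Tbk1-/- Ikbke-/- cells.

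Among the squalene and lanosterol steps, squalene synthase (Fdft1) had ratios of -0.80 in Tbk1-/-, 0.01 in Tbk1-/- Ikbke-/-, -0.48 in Ikbke-/- and -0.24 in WT cells. Squalene epoxidase (Sqle), which adds the oxygen needed for ring closure, had signals of 2397 after B-DNA and 4104 after mock in Tbk1-/- cells, 1433 and 1415 in Tbk1-/- Ikbke-/- cells, 1908 and 3511 in Ikbke-/- cells, and 1008 and 1923 in WT cells. Its ratios were -0.78, 0.02, -0.88 and -0.93 in those genotypes, so the double mutant pair was level while the other pairs were lower after B-DNA. Lanosterol synthase (Lss), the cyclase, had signals of 410.05 after B-DNA and 701 after mock in Tbk1-/- cells, 487 and 434 in Tbk1-/- Ikbke-/- cells, 444 and 1057 in Ikbke-/- cells, and 234 and 432 in WT cells. Its B-DNA signal was thus the lower one in 3 genotypes and the higher one in Tbk1-/- Ikbke-/- cells, with log2 ratios of -0.77, 0.17, -1.25 and -0.88 in that order.

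The steps from lanosterol to cholesterol held the largest difference of the list. Msmo1, the oxidase that removes methyl groups from the sterol ring at carbon C-4, had signals of 2468 after B-DNA and 5036 after mock in Tbk1-/- cells, against 893 and 1213 for the pair of Tbk1-/- Ikbke-/- cells. In Ikbke-/- cells it had 1964 after B-DNA and 6651 after mock, and in WT cells 599 and 3122. All 4 B-DNA signals lay under their own mock signal, with log2 ratios of -1.03 in Tbk1-/-, -0.44 in Tbk1-/- Ikbke-/-, -1.76 in Ikbke-/- and -2.38 in WT cells. It was the only synthesis gene 2-fold lower in 3 genotypes.

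On the probe set used, Cyp51, the lanosterol demethylase, was lower after B-DNA in each genotype. Its ratios were -0.78 in Tbk1-/-, -0.37 in Tbk1-/- Ikbke-/-, -0.71 in Ikbke-/- and -0.72 in WT cells. The brightest of its other probe sets gave -0.99, 0.16, -0.56 and -0.44, the opposite sign in the double mutant. Sc5d, the sterol desaturase that precedes Dhcr7, had ratios of -0.82, -0.60, -0.80 and -0.28. Dhcr7, the reductase of 7-dehydrocholesterol, had ratios of -0.12, -0.29, -0.62 and -0.55. Nsdhl and Hsd17b7, which act with Msmo1 in the same demethylation, had ratios of -0.70 and -0.93 in Tbk1-/- cells, 0.14 and 0.18 in Tbk1-/- Ikbke-/- cells, -0.31 and -0.54 in Ikbke-/- cells, and -0.09 and -0.34 in WT cells. Ebp, the sterol isomerase, stayed between -0.23 and 0.00. Tm7sf2, a sterol reductase, was the only synthesis gene above 0 in all 4 pairs, at 0.08 to 0.26.

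**Figure D2:**
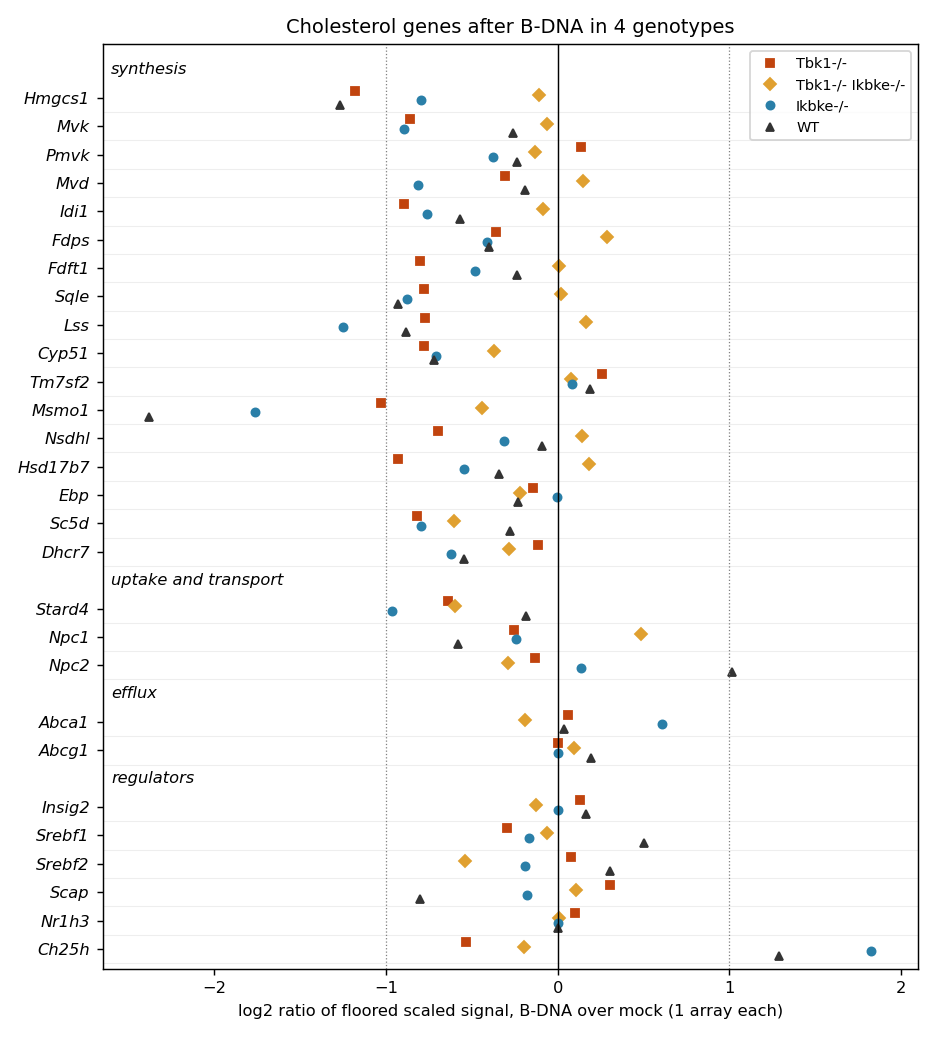
Log2 ratio of B-DNA over mock (x axis) for each measured cholesterol gene (y axis, grouped by role), 1 point per genotype and 1 pair of arrays behind each point. Synthesis genes lie mostly left of 0 except the Tbk1-/- Ikbke-/- points, and Ch25h lies at 1.83 and 1.29 in Ikbke-/- and WT cells and left of 0 in both genotypes without Tbk1.

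Uptake and transport genes did not share a direction. Stard4, a soluble sterol carrier, had log2 ratios of -0.64 in Tbk1-/-, -0.60 in Tbk1-/- Ikbke-/-, -0.96 in Ikbke-/- and -0.19 in WT cells. Npc1, the membrane protein that passes cholesterol out of late endosomes, had signals of 137 to 273 and ratios of -0.25, 0.49, -0.24 and -0.58 in the same genotypes. Its soluble partner Npc2 had signals of 7598 after B-DNA and 8325 after mock in Tbk1-/- cells, 11900.1 and 14529 in Tbk1-/- Ikbke-/- cells, 13192 and 12003 in Ikbke-/- cells, and 15599 and 7733 in WT cells. Only the WT pair differed 2-fold, with a ratio of 1.01, against -0.13, -0.29 and 0.14 in Tbk1-/-, Tbk1-/- Ikbke-/- and Ikbke-/- cells. By this rule 3.27% of all genes were higher in WT cells, and the other probe set of Npc2 gave -0.20 in Tbk1-/-, 0.52 in Tbk1-/- Ikbke-/-, 0.23 in Ikbke-/- and 0.89 in WT cells, the opposite sign in the double mutant.

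Efflux transporters and regulators of the sterol switch differed by less than 2-fold, Ch25h apart. Abca1, which loads cholesterol onto lipid-poor apolipoprotein, had ratios of 0.06 in Tbk1-/-, -0.19 in Tbk1-/- Ikbke-/-, 0.60 in Ikbke-/- and 0.04 in WT cells. Abcg1 was at or under the floor on 5 of the 8 arrays and Nr1h3, which encodes liver X receptor alpha, on 6. Srebf2, the main activator of the synthesis genes, had ratios of 0.08, -0.54, -0.19 and 0.31 in Tbk1-/-, Tbk1-/- Ikbke-/-, Ikbke-/- and WT cells, and its other probe set gave -0.10, -0.30, -0.34 and -0.52. On the probe sets used, Srebf1 ranged from -0.29 to 0.50, Insig2 from -0.13 to 0.16 and Scap from -0.80 in WT cells to 0.30 in Tbk1-/- cells. The brightest other Insig2 probe set gave 0.72 in Tbk1-/-, -0.09 in Tbk1-/- Ikbke-/-, -0.07 in Ikbke-/- and 0.13 in WT cells. None of these 7 genes passed the 2-fold rule in any pair.

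Ch25h, cholesterol 25-hydroxylase, had signals of 145 after B-DNA and 209.6 after mock in Tbk1-/- cells, 160.1 and 183 in Tbk1-/- Ikbke-/- cells, 836 and 236 in Ikbke-/- cells, and 2686.5 and 1098 in WT cells. The B-DNA array was the higher one in both genotypes with Tbk1, where the log2 ratio was 1.83 for Ikbke-/- and 1.29 for WT cells. It was the lower one in both without Tbk1, at -0.53 in Tbk1-/- and -0.20 in Tbk1-/- Ikbke-/- cells. All Ch25h signals without Tbk1 were under 244, so a fall there was not resolved. By the 2-fold rule 0.291% of all genes were higher in Tbk1-/- cells, 0.54% in Tbk1-/- Ikbke-/- cells and 3.55% in Ikbke-/- cells. The summed macrophage markers were 5768 after B-DNA and 16511 after mock in WT cells, and 1 of the 18 reached a signal of 244 on each Ikbke-/- array. On the mock arrays Ch25h was also highest in WT cells. The part of macrophages in the Ch25h values was not tested.

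**Figure D3:**
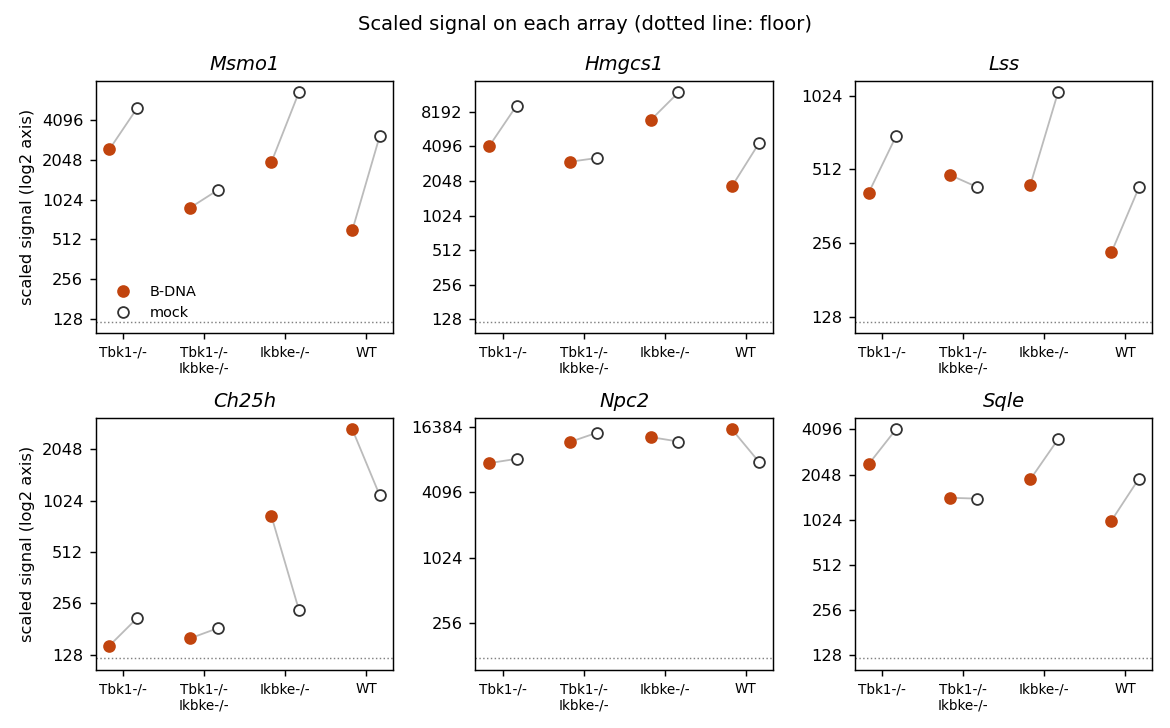
Scaled signal (y axis, log2) of the 5 genes whose probe set used differed 2-fold in any pair, and of Sqle, by array and genotype (x axis). Filled points are B-DNA arrays, open points mock arrays, and the dotted line is the floor of 122. Msmo1 is lower after B-DNA in every genotype, as is the Hmgcs1 probe set drawn (2 of its 3 others are higher in Tbk1-/- Ikbke-/- cells), and Ch25h is higher after B-DNA in Ikbke-/- and WT cells.

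The tests combined the pairs in limma, with a Benjamini-Hochberg adjustment over all 9626 genes. The mean response of the 4 genotypes called 0% of genes in either direction, and so no cholesterol gene. In that fit 9 of the 17 synthesis genes had an unadjusted p under 0.05, all 9 lower after B-DNA. Of all 9626 genes 437 were lower and 324 higher at that p, 7.91% in either direction. Among the synthesis genes Cyp51 had the smallest p-value, an unadjusted limma p of 0.001445 with an adjusted p of 0.605. Its mean log2 ratio was -0.65 ± 0.10 (SE), lower in 4 of 4 pairs on the probe set used. The response without Tbk1, the mean of the Tbk1-/- and Tbk1-/- Ikbke-/- pairs, also called 0% of genes in either direction. In it 4 synthesis genes had an unadjusted p under 0.05, all 4 lower after B-DNA. Of all 9626 genes 333 were lower and 348 higher at that p, 7.08% in either direction. The lowest of the 4 synthesis genes was Msmo1, at -0.74 ± 0.16 with an adjusted p of 0.661.

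Averaged over the Ikbke-/- and WT pairs, the response with Tbk1 called 3.41% of genes higher and 1.56% lower, and 3 cholesterol genes were among them. Msmo1 fell by 2.07 on the log2 scale (SE 0.16, limma adjusted p = 0.001075), Hmgcs1 fell by 1.03 (SE 0.18, adjusted p = 0.03025) and Ch25h rose by 1.56 (SE 0.16, adjusted p = 0.003898), each in 2 of 2 pairs. Next in order were Sqle at -0.91, Lss at -1.07 and Cyp51 at -0.72, with adjusted p-values of 0.0543, 0.0668 and 0.0731. Without any 1 of the 4 genotypes no gene was called, and over all 14 alternatives the adjusted p ranged from 2.1e-05 to 0.336 for Msmo1, 0.00587 to 0.644 for Hmgcs1 and 0.000233 to 0.327 for Ch25h. The fit left 1 residual degree of freedom and leaned on the spread over all genes.

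Tbk1 dependence, the response without Tbk1 minus the response with it, was called higher for 0.239% and lower for 1.83% of genes. Ch25h was lower at -1.92 ± 0.23 (SE, limma adjusted p = 0.01269), and Msmo1 was higher at 1.34 ± 0.23 (adjusted p = 0.04666), with mean log2 ratios of -0.74 without Tbk1 and -2.07 with it. No other cholesterol gene was called. For Hmgcs1 the mean ratio was -0.64 without Tbk1 and -1.03 with it. Over the 14 alternatives Ch25h was called in 6 and Msmo1 in 3, with adjusted p-values of 0.00143 to 0.399 and 0.012 to 0.463, and neither was called without any 1 of the 4 genotypes. All 13 measured interferon-stimulated genes kept as a reference list were called in this contrast. Among them Ifih1, a cytosolic RNA sensor, had signals of 139 after B-DNA and 133 after mock in Tbk1-/- cells, 187 and 156 in Tbk1-/- Ikbke-/- cells, 14101 and 128 in Ikbke-/- cells, and 13655 and 273 in WT cells.

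Ikbke dependence called 0% of genes in either direction. At an unadjusted p under 0.05 there were 3 of the 28 cholesterol genes and 4.52% of all genes. The difference between the low synthesis ratios of Tbk1-/- cells and the median near 0 of Tbk1-/- Ikbke-/- cells is made of this Ikbke term and of the interaction of both genes with treatment. The interaction was the residual of the fit and was not tested.

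The mock arrays themselves differed in the level of the pathway. Of the 17 synthesis genes, 5 were 2-fold higher than in WT in Tbk1-/- cells and 8 in Ikbke-/- cells, with none lower in either, while in Tbk1-/- Ikbke-/- cells none was higher and 4 were lower. The shares of all genes past the rule were 2.23% (higher) and 3.33% (lower) for Tbk1-/- cells, 5.56% and 5.51% in Tbk1-/- Ikbke-/- cells, and 2.31% and 3.13% in Ikbke-/- cells. The median log2 ratio of the synthesis genes over the WT mock array was 0.66 in Tbk1-/-, -0.25 in Tbk1-/- Ikbke-/- and 0.95 in Ikbke-/- cells. These 3 comparisons share the WT mock array, which also enters the WT response and carries the macrophage markers, and with 1 array a group they have no test.

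Sc5d lay 1.49 above WT in Tbk1-/- cells, 0.09 in Tbk1-/- Ikbke-/- cells and 2.01 in Ikbke-/- cells on the log2 scale. Idi1 had values of 1.34, -1.07 and 1.48 and Hmgcs1 of 1.07, -0.44 and 1.45 in the same genotypes. The 4 genes that were lower in Tbk1-/- Ikbke-/- cells were Idi1, Fdps at -1.14, Msmo1 at -1.36 and Hsd17b7 at -1.13. Summed over the 17 genes, the synthesis signal was 20804 after B-DNA and 36473 after mock in Tbk1-/- cells, 13641 and 14162 in Tbk1-/- Ikbke-/- cells, 26860.4 and 45888 in Ikbke-/- cells, and 12394 and 21033 in WT cells. The double mutant thus had the lowest mock sum of the 4 genotypes, and its pair differed least. Each mock array is also the base of its own B-DNA ratio, so mock level and response of a genotype are not independent readings. Whether they are linked was not tested.

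**Figure D4:**
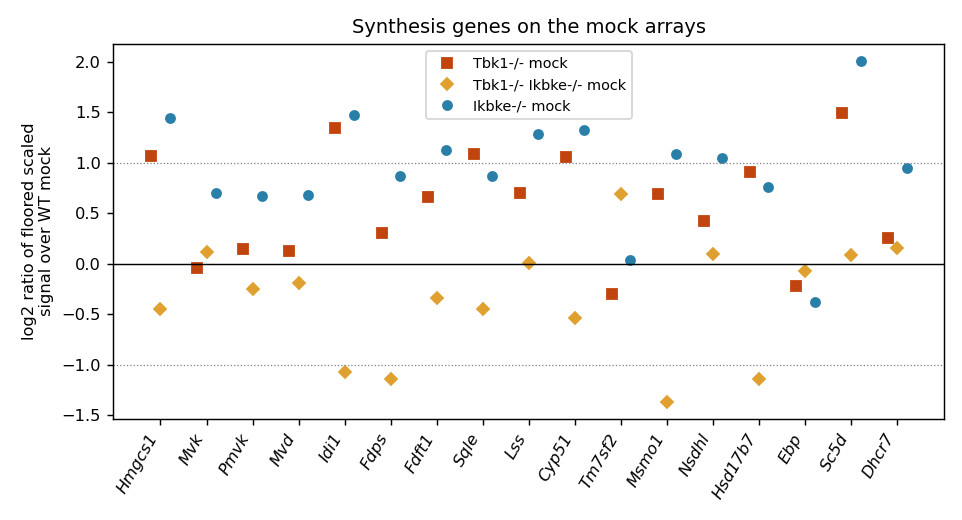
Log2 ratio of the mock signal in each mutant over the WT mock array (y axis) for the 17 measured synthesis genes (x axis), 1 array per genotype, with dotted lines at a 2-fold difference. Of the 17 genes, 14 lie above 0 in Tbk1-/-, 6 in Tbk1-/- Ikbke-/- and 16 in Ikbke-/- cells. Of all 9626 genes tested, 3895, 5076 and 3774 were above 0 in the same order.

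Outside synthesis, Ch25h was the only regulator that passed the 2-fold rule in the mock arrays. It was lower than WT by that rule in all 3 mutants, at -2.39 in Tbk1-/-, -2.58 in Tbk1-/- Ikbke-/- and -2.22 in Ikbke-/- cells. Abca1 had ratios of -0.96, 0.89 and -0.82 in those genotypes, and Srebf2 had 0.38, 0.48 and 0.41.

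In the isoprenoid branch, which draws on farnesyl diphosphate for prenylation, dolichol and ubiquinone, 1 of 9 measured genes passed the 2-fold rule in any pair: Rabggtb, a subunit of the enzyme that prenylates Rab proteins, at -1.22 in WT cells. Of 15 measured genes of fatty acid synthesis and desaturation, 1 passed it, the phosphatidate phosphatase gene Lpin1, at -1.15 in Tbk1-/- cells, and none was called by limma. The median of that list was -0.04 in Tbk1-/-, 0.06 in Tbk1-/- Ikbke-/-, -0.32 in Ikbke-/- and -0.26 in WT cells. Of 15 measured genes of sterol uptake, storage and transport, Lipa, the lysosomal acid lipase, and Stard3, a late-endosomal sterol carrier, were 2-fold higher in Ikbke-/- cells at 1.70 and 1.34. Stard3 was also called in the response with Tbk1 (0.99 ± 0.20 SE, limma adjusted p = 0.04556), higher in 2 of 2 pairs, but in only 3 of 14 alternatives, with adjusted p-values of 0.00965 to 0.456. None of 4 measured genes of SREBP processing and degradation passed either rule. Of 7 measured other liver X receptor targets, Pltp, the phospholipid transfer protein, was 2-fold lower in Tbk1-/- Ikbke-/- cells at -1.04. By the 2-fold rule 1.89% of all genes were lower in WT, 0.405% in Tbk1-/- and 0.748% in Tbk1-/- Ikbke-/- cells. In Ikbke-/- cells 3.55% were higher, and limma called 3.41% higher in the response with Tbk1. The share of all genes past the rule in any pair was not counted.

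Several members had more than 1 probe set, which gives a second reading from the same hybridisation. Of 23 further probe sets 16 reached a signal of 244 on an array. In the pairs where they reached it, the sign was that of the brighter probe set for 12 of 13 in Tbk1-/- cells, 5 of 12 in Tbk1-/- Ikbke-/- cells, 15 of 15 in Ikbke-/- cells and 10 of 11 in WT cells. For Stard4 the further probe set gave -1.40 in Tbk1-/-, -1.04 in Tbk1-/- Ikbke-/-, -0.92 in Ikbke-/- and -0.40 in WT cells, the sign of the brighter one in each.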

How the data were processed

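The authors deposited 1 signal intensity per probe set and array, made with MAS5 per the labels (Microarray Suite 5.0 in the design text, which names an older array type than the one the probe sets belong to). The intensities were linear and not yet on a common scale: the 2% trimmed means were 139.8 to 255. Values were scaled to a trimmed mean of 500 over 22626 probe sets, leaving out 64 controls, floored at 122 (the 40th percentile) and taken as log2. Low-signal ratios are shrunk by the floor. Symbols came from the platform annotation in GEO: 20380 probe sets had 1 symbol, 691 several and 1555 none. Each gene used its probe set with the highest mean. With 1 array a group, ratios have no test. limma 3.58.1 (R 4.3.3) fitted genotype as a block, with treatment alone or with its interactions with Tbk1 and Ikbke, 2-sided. It used genes at the floor or above on any array and called genes at an adjusted p of 0.05. It was also run on simulated independent arrays without a floor, which do not show how calls behave in shared cultures. All members are accounted for. Values on every array are given for those past the 2-fold rule or a limma test. Up to 4 such genes of each other sterol or lipid list are named, with the ratio or test by which they passed. Members, lists and tests were chosen with earlier results of these data known. Nothing states that arrays are of separate cultures, so what the p-values measure is spread between arrays, which may be technical. The number of arrays limits the precision.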

Additional observations from a re-analysis of the deposited data

Results flagged for a closer look

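Msmo1 differed in its response by genotype in the main fit: the log2 ratio of B-DNA over mock without Tbk1 minus that with Tbk1 was 1.34 (limma adjusted p = 0.04666). Ch25h differed in the opposite direction, at -1.92 (adjusted p = 0.01269), with a higher B-DNA signal in both genotypes with Tbk1. Of the 14 alternatives, only 3 called the Msmo1 difference and 6 that of Ch25h. Without Tbk1 the B-DNA signal of Ch25h was the lower one in both genotypes, but all signals there, 145 to 209.6, were under 244. Over the 14 alternatives the Ch25h response without Tbk1 ranged from -0.53 to 0, so a fall there was not resolved. Npc2, on its brighter probe set, had ratios below 0 in both genotypes without Tbk1, at -0.13 in Tbk1-/- and -0.29 in Tbk1-/- Ikbke-/- cells, and above 0 in both with it, at 0.14 in Ikbke-/- and 1.01 in WT cells. The difference, -0.78, had a limma adjusted p of 0.2271, and the other Npc2 probe set gave 0.52 in Tbk1-/- Ikbke-/- cells, which goes against the split by Tbk1. All 3 genes were picked by these same data.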

How the results depend on the processing

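B-DNA and mock arrays were paired by genotype, the block in every fit. At 1.5-fold the counts of lower synthesis genes were 11 in Tbk1-/-, 1 in Tbk1-/- Ikbke-/-, 10 in Ikbke-/- and 5 in WT cells, and without further scaling the 2-fold counts were 5 in Tbk1-/-, 7 in Ikbke-/- and 5 in WT cells. That setting moved the median of all genes by -0.10 in Tbk1-/-, 0.10 in Tbk1-/- Ikbke-/-, -0.23 in Ikbke-/- and -0.39 in WT cells, and the WT median of the synthesis genes to -0.74. With the all-gene shift taken off, an alternative chosen after seeing the data, it was -0.36. The mean of all probe sets gave a count of 1 in Ikbke-/- cells. Medians of the synthesis genes kept their sign in Tbk1-/-, Ikbke-/- and WT cells under all 8 alternatives run for them, and in Tbk1-/- Ikbke-/- cells they ranged from -0.09 to 0.13.

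The response with Tbk1 called 478 genes and 3 members. Without the filter both counts were 0, without the Ikbke term 270 genes, with no further scaling 1344 genes and 8 members, with the floor at the 20th percentile 164 genes and 1 member, with the mean of all probe sets 288 genes, with the floor at the 60th percentile 5 members and with genes above the floor on all arrays 6 members. Tbk1 dependence called 199 genes and 2 members. The counts were 0 and 0 without the filter, 104 and 0 without the Ikbke term, 118 and 1 with no further scaling, 48 and 0 with the lower floor and 97 and 1 with the mean of all probe sets, and 1 member remained with quantile normalization, scaling to the median or an offset in place of the floor. Leaving out each genotype in turn gave 0 to 0 in both contrasts. Those fits dropped the Ikbke term, and a genotype left alone on its side was assumed to vary like the others. Calls of 0 in the other 3 contrasts stayed at 0 under every alternative run. With 1 array a group and 1 residual degree of freedom, signals near the floor and small differences were not resolved.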
